A study of Mus musculus with 6 samples.

Results

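The Hippo pathway was followed at the level of RNA through 10 of its genes in mouse embryonic stem cells with and without 3 linker histones. The genes are the coactivators Wwtr1 (the gene of TAZ) and Yap1, the transcription factors Tead1, Tead2 and Tead4, the target genes Ccn1 (also known as Cyr61) and Ccn2 (also known as Ctgf), and the regulators Lats2, Frmd6 and Nf2. All 10 are on the array, with 16 of its 12488 probe sets, out of 8251 genes that the platform annotation lists for a probe set of their own. They were chosen by symbol, with the difference between null and wild-type cells already known: Wwtr1 was among the probe sets called lower in null cells and Frmd6 lay just outside that threshold. The differences of these genes between null and wild-type cells are therefore given as a description, with no test. What was tested for them is the difference between the null lines, which had no part in the choice.

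The Hippo pathway is a kinase cascade that restrains growth in response to cell contact, cell shape and polarity. Its last kinases, LATS1 and LATS2, phosphorylate TAZ and its close relative YAP, which are then held in the cytoplasm or degraded. Unphosphorylated TAZ and YAP enter the nucleus and, having no DNA-binding domain, act through TEAD factors on genes of the matrix, the cytoskeleton and growth. In the early mouse embryo the pathway separates the trophectoderm, where YAP and TEAD4 act in the nucleus, from the inner cell mass, from which embryonic stem cells are derived.

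The tested cells were 2 lines of embryonic stem cells null for H1c, H1d and H1e, whose current symbols are H1f2, H1f3 and H1f4. Linker histones sit on the outside of the nucleosome, over the DNA at its entry and exit. They are called null line 1 and null line 2 here, and were set against wild-type embryonic stem cells. Each of the 3 lines was measured on 2 arrays, labelled experiment 1 and experiment 2, from total RNA of exponentially growing cells. Whether 2 arrays of a line stem from 2 cultures is not stated. The p-values reflect the spread between arrays alone, which could be purely technical. A difference of a single wild-type line from the null lines cannot be told apart from an effect of the deletion.

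Values are MAS5 signals in intensity units, scaled by the authors to a common level. The median signal of the arrays lay between 34.1 and 39.5, and the highest of 19 bacterial and yeast control probe sets, taken here as background, between 9.1 and 16.8 on null arrays and between 9.2 and 17.2 on wild-type arrays. Across all probe sets tested, the log2 difference between the arrays of a line had an SD between 0.333 and 0.371. H1f2 measured 11.1, 11.5, 13.0 and 14.4 on the null arrays, against 70.0 and 68.2 on the wild-type arrays, which fits the labels. The H1f3 and H1f4 probe sets were at background on every array and check nothing. The embryonic stem cell markers Pou5f1, Nanog and Sox2 measured between 1102 and 1787 on null arrays and between 1291 and 1536 on wild-type arrays.

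Promoters of 7 of the 10 genes were found in RefSeq (GRCm38.p6), from 250 bases before to 50 bases after each gene start. Ccn2, Tead1 and Tead4 had no promoter in the table used and were not searched. The promoters found were searched on both strands for GGAATG, the core motif that TEAD factors bind. It occurred in 4 of the 7 genes, namely Wwtr1, Yap1, Ccn1 and Lats2, where 16.6% of all 27025 genes in the table have it in a window of the same length. Several genes have more than 1 listed start, and by window it occurred in 14.7% of all 32851. The Frmd6, Nf2 and Tead2 windows do not hold these letters. The matches are shown with the flanking bases because they stand near the starts of both coactivators, a target and a kinase of the pathway; capitals mark the motif, all genes lie on the minus strand, and each sequence is read 5′ to 3′ on the strand of the gene.

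Wwtr1, chr3:57576021-57576066, motif beginning 136 bases before the more upstream of its listed starts: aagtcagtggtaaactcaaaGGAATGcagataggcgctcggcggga

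Yap1, chr9:8004712-8004757, motif beginning 141 bases before the start: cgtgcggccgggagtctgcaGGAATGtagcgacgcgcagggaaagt

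Ccn1, chr3:145650063-145650108, motif on the opposite strand, its first base 103 bases before the start: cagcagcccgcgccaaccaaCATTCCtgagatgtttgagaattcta

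Lats2, chr14:57746102-57746131, motif beginning 4 bases after the more upstream of its listed starts: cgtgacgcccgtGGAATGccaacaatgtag

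Of the coactivators, Wwtr1 was lower on null arrays and Yap1 was nearly level. The brighter Wwtr1 probe set, 103100_at, measured 99.4 and 99.6 in null line 1 and 81.9 and 82.7 in null line 2, against 161.5 and 163.2 in wild-type cells. All null arrays lay below both wild-type arrays, and the 2 arrays of each line were closer to each other than to any array of another line. The means were 90.9 ± 9.94 (SD, n = 4) in null cells and 162 ± 1.20 (SD, n = 2) in wild-type cells, a log2 change of -0.83 ± 0.10 (SE) on the scale log2(signal + 2). In bulk RNA, fewer cells that express a gene and less of its RNA per cell cannot be told apart.

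The second Wwtr1 probe set, 95627_at, measured 47.0 and 65.9 in null line 1 and 47.3 and 74.2 in null line 2, against 66.6 and 99.3 in wild-type cells. Its groups overlap when the arrays are pooled. The experiment 2 array was the brighter one in every line, by 0.55 on the log2 scale on average. Within each experiment both null arrays lay below the wild-type array, with log2 changes of -0.48 in experiment 1 and -0.49 in experiment 2. Its size rests on the wild-type arrays: the pooled change of -0.49 was -0.77 without the experiment 1 wild-type array and -0.21 without that of experiment 2. For 103100_at the changes within experiments were -0.83 and -0.83. Both probe sets of TAZ lay lower in null cells when arrays of the same experiment number were compared, by unequal amounts. These numbers were not taken to pair the arrays, and with arrays pooled only 103100_at kept its groups apart.

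Yap1, which encodes YAP, measured 388.7 and 402.6 in null line 1 and 380.0 and 430.3 in null line 2, against 454.3 and 405.4 in wild-type cells (probe set 160520_at). The groups overlap, and the log2 change was -0.10 ± 0.12 (SE). Its sign differed between experiments, at -0.24 in experiment 1 and 0.04 in experiment 2. A second Yap1 probe set, 161308_f_at, was dim, with 4 of 6 arrays above background, between 8.4 and 23.7 on null arrays and at 20.2 and 13.2 on wild-type arrays.

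The TEAD factors showed no common direction. Tead2, which is expressed from the earliest stages of the mouse embryo, measured 222.5 and 198.8 in null line 1 and 237.1 and 213.7 in null line 2, against 195.7 and 258.1 in wild-type cells, so the wild-type arrays enclosed all null arrays. Tead4, which is required for the trophectoderm, measured between 81.0 and 103.6 on null arrays, against 74.9 and 84.1 on wild-type arrays with probe set 102866_at. With 102867_at it measured between 50.5 and 61.3 on null arrays, against 53.3 and 66.4 on wild-type arrays. The log2 changes were -0.05 ± 0.15 for Tead2, and 0.16 ± 0.14 and -0.06 ± 0.14 for the 2 Tead4 probe sets (SE). Their signs did not agree, and each of these probe sets had overlapping groups.

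The other 2 Tead4 probe sets and both of Tead1, a TEAD factor of heart and many other tissues, fell below the filter on low signal. Tead1 was above background on 4 of 6 arrays with 161383_r_at (between 2.9 and 23.3 on null arrays, against 23.9 and 14.1 on wild-type arrays) and on none with 104233_at. Tead4 was above background on 3 arrays with 102868_g_at and on none with 161179_at. No direction is drawn from them, nor is a low signal of a probe set a measure of how much Tead1 RNA the cells hold.

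Both target genes measured lower on every null array than on either wild-type array, by less than Wwtr1 103100_at. Ccn1, a secreted matrix-associated protein induced by TAZ and YAP, measured 176.6 and 137.4 in null line 1 and 154.4 and 202.3 in null line 2, against 230.3 and 233.5 in wild-type cells. The null arrays averaged 168 ± 28.1 (SD, n = 4) and the wild-type arrays 232 ± 2.26 (SD, n = 2), a log2 change of -0.48 ± 0.16 (SE). Within experiments it was -0.48 in both.

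Ccn2, a relative of Ccn1 with the same domain plan, measured 253.5 and 219.0 in null line 1 and 304.8 and 343.3 in null line 2, against 355.3 and 346.1 in wild-type cells. The highest null array, in line 2, lay just below the lower wild-type array, whereas both arrays of line 1 lay well below. The null arrays averaged 280 ± 54.9 (SD, n = 4) and the wild-type arrays 351 ± 6.51 (SD, n = 2). The log2 change was -0.34 ± 0.12 (SE) for the average of the null lines, -0.57 ± 0.14 for line 1 and -0.12 ± 0.14 for line 2.

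Among the regulators, Lats2 and Frmd6 were lower and Nf2 was higher on the null arrays. Lats2 encodes a kinase that phosphorylates TAZ and YAP, and is itself a target gene of theirs. It measured 135.8 and 168.7 in null line 1 and 126.2 and 145.8 in null line 2, against 214.8 and 219.9 in wild-type cells, with the groups well apart. The log2 change was -0.59 ± 0.14 (SE), and within experiments -0.71 and -0.48. Its only probe set, 160261_i_at, is of a type built from fewer probes than usual.

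Frmd6 (the relative of the fly Expanded protein, which acts upstream of the kinases in the fly) measured 23.3 and 22.6 in null line 1 and 31.9 and 29.0 in null line 2, against 47.7 and 46.6 in wild-type cells. The lines did not overlap: line 1 was lowest, line 2 between, and wild type highest. The null arrays averaged 26.7 ± 4.50 (SD, n = 4) and the wild-type arrays 47.1 ± 0.778 (SD, n = 2), a log2 change of -0.79 ± 0.11 (SE). Its signals were above background on all 6 arrays, but the null values stood at the lower end of those tested, where the added 2 units shrink a log2 change.

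Nf2 encodes Merlin, a tumour suppressor that promotes phosphorylation of TAZ and YAP by the LATS kinases. It measured 178.4 and 197.6 in null line 1 and 187.8 and 189.8 in null line 2, against 139.2 and 130.2 in wild-type cells. It was the only one of the 10 genes with all null arrays above both wild-type arrays. The averages were 188 ± 7.89 (SD, n = 4) in null cells and 135 ± 6.36 (SD, n = 2) in wild-type cells, a log2 change of 0.48 ± 0.11 (SE), with 0.47 in line 1 and 0.48 in line 2.

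**Figure D1:**
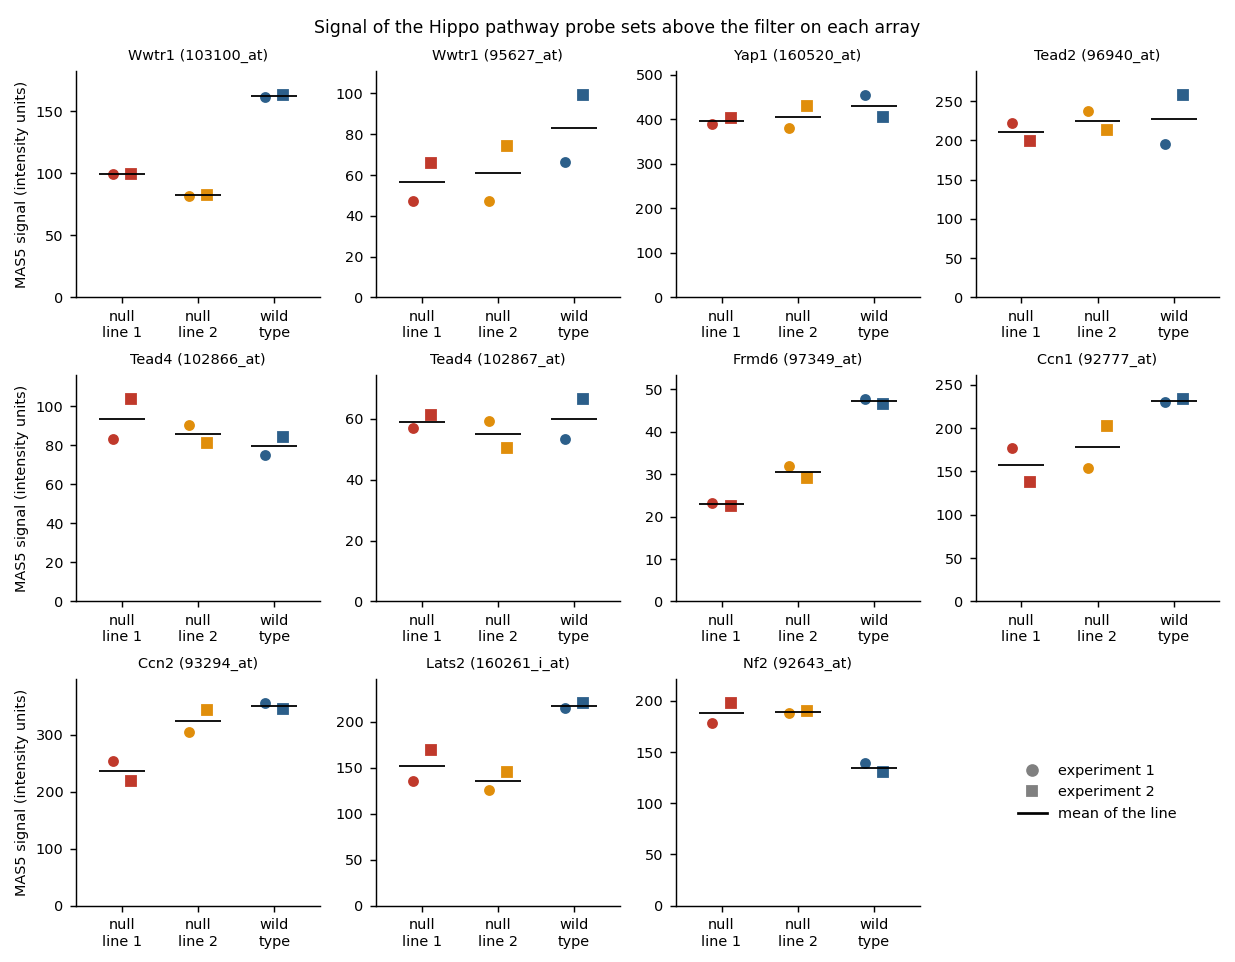
MAS5 signal in intensity units (vertical axes, from 0) of the 11 probe sets above the filter, on the 2 arrays of null line 1, null line 2 and wild type; circles are experiment 1, squares experiment 2, and black bars the mean of a line. The wild-type points stand above all null points for Wwtr1 (103100_at), Frmd6, Ccn1, Ccn2 and Lats2, and below them for Nf2.

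In all, 11 probe sets of 9 genes passed the filter on mean signal, every gene but Tead1. Of these 11, 9 had a negative and 2 a positive change (52.7% of all 7453 probe sets tested had a negative one), with a median of -0.34 against -0.01 over all. The null arrays lay wholly below the wild-type arrays for 5 and wholly above for 1, while over all probe sets tested these shares were 12% and 11%. As the same contrast served to choose the genes, nothing is read from these counts. Over all probe sets, 31 (0.416%) were called by limma at an adjusted p of 0.05, 21 higher in null cells (0.282%) and 10 lower (0.134%). One of the 11, Wwtr1 103100_at, is among the lower ones, which is how it was chosen. Summed signals of fibroblast and of extraembryonic endoderm markers, in which bright genes weigh most, were also lower on every null array (values below). The part of these markers in the differences was not tested.

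The null lines were compared with each other over all probe sets, and 0 of the 11 passed an adjusted p of 0.05 by limma, against 2 probe sets (0.0268%) in the whole table. Those 2, named because they are so few, were of Prp2 and of no listed gene (162020_at). At an unadjusted p of 0.05, 2 of the 11 passed, where 7.55% of all probe sets did. They were Ccn2, with 236 ± 24.4 in line 1 and 324 ± 27.2 in line 2 (SD, n = 2 each), and Frmd6, with 22.9 ± 0.495 in line 1 and 30.4 ± 2.05 in line 2. The log2 difference, line 1 minus line 2, was -0.45 ± 0.14 for Ccn2 and -0.38 ± 0.12 for Frmd6 (SE, limma adjusted p = 0.627 for both).

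Wwtr1 103100_at differed the other way, with 99.5 ± 0.141 in line 1 and 82.3 ± 0.566 in line 2 (SD, n = 2 each). That is a log2 difference of 0.27 ± 0.12 (SE, limma adjusted p = 0.627). The arrays of the null lines did not overlap for Wwtr1 103100_at, Frmd6 and Ccn2, which is 3 of 11, against 39.1% of all probe sets. By this probe set, the line with the lower Wwtr1 signal was not the line with the lower Ccn1, Ccn2 or Frmd6 mean, but it was the line with the lower Lats2 mean (152 in line 1 and 136 in line 2). By 95627_at the line with the lower Wwtr1 mean was line 1, with 56.5 against 60.8 in line 2. For Ccn1, Lats2 and 95627_at the arrays of the null lines overlapped (limma adjusted p = 0.818, 0.807 and 0.950). None of these differences passed, so no order of the lines is read from them. For Nf2 the lines differed by -0.01 ± 0.13 (SE, limma adjusted p = 0.991).

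**Figure D2:**
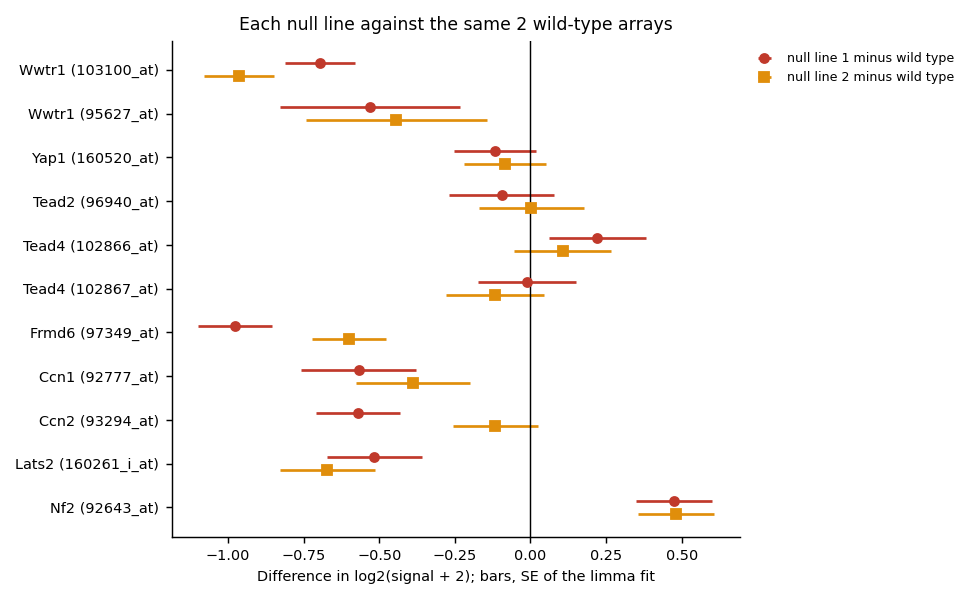
Difference of null line 1 (circles) and null line 2 (squares) from wild type on the scale log2(signal + 2), with bars of 1 SE from the limma fit, for the 11 probe sets above the filter; both lines are set against the same wild-type arrays, so the points of a pair share those. Wwtr1 103100_at stands at -0.70 and -0.96, Frmd6 at -0.98 and -0.60, Ccn2 at -0.57 and -0.12, and Nf2 at 0.47 and 0.48.

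The genes whose pattern over the 6 arrays was nearest to Wwtr1 103100_at were Phldb2, Tapbp, Dsc2, Krt8 and Perp. Nearness is the root mean square difference of the log2 signals after each probe set was centred on its own mean, and it lay between 0.0781 and 0.0951 for these 5, against a median of 0.438 over 6714 probe sets listed with 1 gene that is not among the 10. Phldb2, a protein of the cell cortex near adhesions, measured 150.9 and 128.5 in null line 1 and 121.0 and 122.8 in null line 2, against 223.4 and 239.1 in wild-type cells. Dsc2 and Perp are proteins of desmosomes, Krt8 is a keratin of simple epithelia, and Tapbp serves MHC class I peptide loading. Their log2 changes in null cells were between -0.92 and -0.71. As these genes were chosen for likeness to Wwtr1 over the same arrays, changes near its own follow from the choice. Among the other members the nearest was Lats2, at 0.159, then Frmd6 at 0.268 and Ccn1 at 0.288, while Nf2 stood at 0.629. The second probe set of Wwtr1 itself, 95627_at, stood at 0.349, farther off than Lats2, Frmd6 and Ccn1. All of these share the same 6 arrays, and the likeness is a description.

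Genes of the pathway outside these 10 were followed in 4 lists, and there the difference between null and wild-type cells was tested over all probe sets, with the brightest probe set standing for each gene. The lists were drawn up with earlier results known, so their counts are a description and no independent evidence of a direction. Of 13 other target genes of YAP and TAZ tested (out of 30), 1 fell and 0 rose, where 0.141% of all genes tested were called lower and 0.177% higher. Changes were negative for 11 of the 13, against 51.6% of all genes, and the median was -0.27, against -0.01 over all genes. Before adjustment 5 of the 13 had p under 0.05, where 13.1% of all genes tested did. Fjx1, named after its values were seen, was among those below the filter. It measured 14.0 and 18.9 in null line 1 and 22.3 and 22.6 in null line 2, against 9.2 and 6.4 in wild-type cells, above background on the null arrays alone.

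Igfbp3, a binding protein of insulin-like growth factors, was the gene that fell. It measured 177.2 and 163.7 in null line 1 and 195.3 and 226.2 in null line 2, against 385.2 and 362.6 in wild-type cells. On the log2 scale it fell by 0.97 ± 0.12 (SE; adjusted p = 0.0433, limma). Its call was already known when the list was made, and it ended when any 1 of the 6 arrays was left out (adjusted p between 0.103 and 0.323 by limma), without the filter (0.202) and with the experiment number as a block (0.0962). Its other probe set, 95083_at, measured 204 ± 16.3 (SD, n = 4) in null and 317 ± 11.7 (SD, n = 2) in wild-type cells (log2 change -0.63, limma adjusted p = 0.132).

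F3, tissue factor, measured 90.7 ± 4.70 in null cells and 157 ± 12.6 in wild-type cells (SD, n = 4 and 2), which is -0.78 ± 0.12 on the log2 scale (SE; adjusted p = 0.0707, limma). Ptpn14, a phosphatase that binds YAP and is also its target, averaged 54.2 in null and 77.6 in wild-type cells (limma adjusted p = 0.195). For Amotl2, an angiomotin that binds TAZ and YAP, the averages were 329 in null and 454 in wild-type cells (log2 change -0.46, limma adjusted p = 0.191). These 3 had all null arrays below both wild-type arrays and did not pass. Gadd45a, Edn1 and Gas6, picked after their values were seen as the members nearest to no change, had log2 changes of 0.00, 0.05 and 0.08.

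Other partners that bind TAZ and YAP included none that passed. Of 13 tested (out of 28), 0 were called in either direction and 2 had an unadjusted p under 0.05 by limma (13.1% of all genes). Changes were negative for 11 (51.6% of all genes), and the median was -0.08. The angiomotin Amot measured 244.3 and 222.4 in null line 1 and 189.2 and 194.9 in null line 2, against 337.4 and 302.5 in wild-type cells (log2 change -0.59 ± 0.11, SE, limma adjusted p = 0.133). Sfn, the epithelial 14-3-3 protein that retains phosphorylated partners in the cytoplasm, averaged 729 in null and 1078 in wild-type cells (log2 change -0.57, limma adjusted p = 0.194). The tight junction protein gene Tjp1 and the 14-3-3 gene Ywhab had log2 changes of -0.28 and -0.15 (limma adjusted p = 0.474 and 0.661).

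Of the other kinases and upstream regulators, 15 of 29 were tested and 0 were called. Changes were positive for 6 and negative for 9 (51.6% of all genes), with a median of -0.10. An unadjusted p under 0.05 by limma was found for 1 gene (13.1% of all genes). That gene was Wwc2, a relative of Kibra, with 60.5 ± 9.97 in null and 91.1 ± 9.62 in wild-type cells (SD, n = 4 and 2; log2 change -0.59 ± 0.15, SE, limma adjusted p = 0.221). Next by p were the adaptor of the LATS kinases Mob1b, the polarity gene Dlg1 and the casein kinase gene Csnk1e. Their log2 changes were -0.30, -0.22 and -0.45 (limma adjusted p between 0.433 and 0.514). Stk3, Stk4, Sav1 and Lats1, the rest of the core cassette, had no probe set of their own in the annotation used here and were not analysed.

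Cell cycle genes that have been counted among YAP targets formed the last list. All 8 tested (out of 11) missed the threshold, 1 of them with an unadjusted p under 0.05 (13.1% of all genes). Changes were positive for 7, where 51.6% of all genes had a negative one, and the median was 0.09. Top2a, a topoisomerase of dividing cells, averaged 456 in null and 368 in wild-type cells (log2 change 0.29, limma adjusted p = 0.394), and Birc5, also known as survivin, 288 in null and 245 in wild-type cells (0.23, limma adjusted p = 0.484). Cdc20, an activator of the anaphase-promoting complex, had a log2 change of 0.12 (limma adjusted p = 0.682). The gene with a negative change, and the gene with that p, was the CDK inhibitor gene Cdkn2c, which averaged 40.7 in null and 59.5 in wild-type cells (log2 change -0.52, limma adjusted p = 0.304). Between the null lines 0 genes of any of the 4 lists passed.

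**Figure D3:**
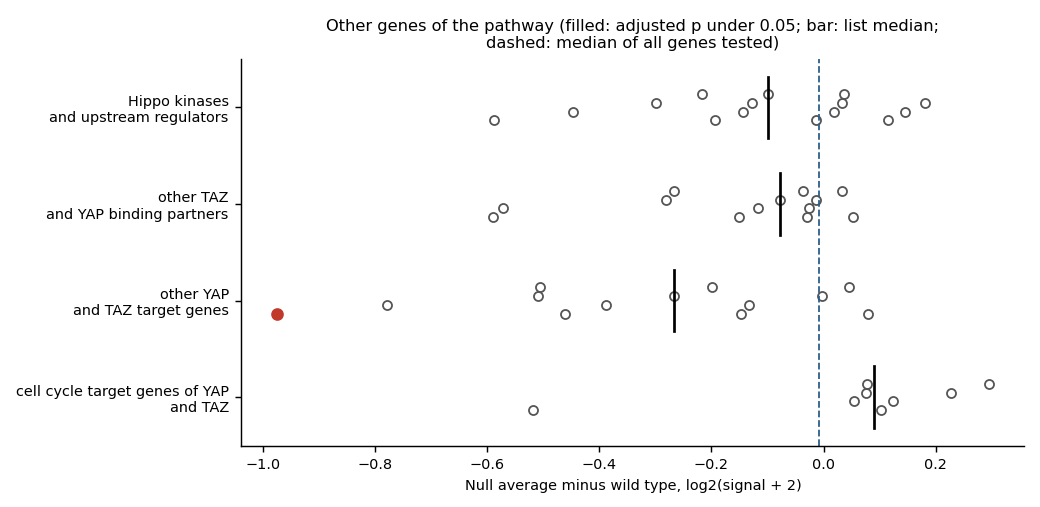
Log2 difference of the null average from wild type for each gene tested in the 4 lists (points; filled where the limma adjusted p was under 0.05), with the median of the list (black bar) and of all genes tested (dashed line). The targets outside the cell cycle have a median of -0.27 and the one filled point, Igfbp3 at -0.97, while the cell cycle targets have a median of 0.09.

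Genes such as Ccn1, Ccn2 and Igfbp3 are also abundant in fibroblasts, the usual feeder cells of such cultures, and Wwtr1 in many adherent cells. Markers of other cells were therefore read on the same arrays. The sample labels do not say whether feeder cells were present, and a part of fibroblasts in the differences was not tested. Fstl1 stands both in the fibroblast list and among the other target genes, so these lists are not fully separate. Of 27 fibroblast markers on the array, 14 were tested and none passed. An unadjusted p under 0.05 by limma was found for 7, where 13.1% of all genes had one. Changes were negative for 11 (51.6% of all genes), with the median at -0.34. The summed signal of all 27 lay between 3201 and 3509 on null arrays and between 4284 and 4311 on wild-type arrays. Bright genes weigh most in it, such as Tagln, which averaged 1032 in null and 1319 in wild-type cells. Serpinh1 averaged 636 in null and 796 in wild-type cells. Members of the list parted by gene. The collagen genes Col1a1 and Col1a2, picked after their values were seen as defining markers, overlapped between groups, with Col1a1 between 144 and 175 on null arrays and at 147 and 170 on wild-type arrays.

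Several other genes of the fibroblast list had all null arrays below both wild-type arrays. Acta2, the smooth muscle actin, averaged 345 ± 60.6 in null and 561 ± 68.1 in wild-type cells (SD, n = 4 and 2), and the metalloprotease inhibitor gene Timp3 38.7 ± 5.21 in null and 62.2 ± 3.54 in wild-type cells. Igfbp4 and Anxa1 had log2 changes of -0.84 and -0.62, and all 4 missed the threshold, with limma adjusted p between 0.104 and 0.134. Another probe set of Igfbp4, 94222_at, pointed up, at 0.33. Other probe sets of Anxa1, 161703_f_at and 93037_i_at, pointed down, at -0.55 and -0.73. Prrx1 was at background on all 6 arrays, and Postn, Cd44, Thy1, Lum and Pdgfrb were above it on at most 2. Dcn, below the filter and above background on 5 arrays, was lower on every null array. It measured between 10.3 and 20.2 on null arrays, against 26.0 and 23.6 on wild-type arrays. Thy1 and Col5a2, both below the filter, were higher on every null array than on either wild-type array. Thy1 measured between 8.4 and 22.3 on null arrays, against 7.2 and 5.3 on wild-type arrays. Col5a2, above background on 5 arrays, measured between 17.9 and 27.1 on null arrays, against 17.8 and 11.2 on wild-type arrays.

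Of 24 extraembryonic endoderm markers on the array, 18 were tested and 1 fell, where 0.141% of all genes tested were called lower. An unadjusted p under 0.05 by limma was found for 5 (13.1% of all genes). Changes were negative for 14 (51.6% of all genes), and the median was -0.21. The gene that fell, Col4a2, a basement membrane collagen, averaged 194 ± 10.5 in null and 349 ± 6.51 in wild-type cells (SD, n = 4 and 2, limma adjusted p = 0.0433), a call that ended when any 1 array was left out (adjusted p between 0.103 and 0.387), without the filter (0.202) and with the experiment number as a block (0.0958). Col4a1, Krt8 and Krt18 had log2 changes of -0.70, -0.71 and -0.81 and missed the threshold (adjusted p = 0.134, 0.0924 and 0.118, limma). The summed signal lay between 4900 and 5975 on null arrays and between 6849 and 7204 on wild-type arrays. Bright genes weigh most in it. Krt8 averaged 909 in null and 1483 in wild-type cells, and Krt18 959 in null and 1674 in wild-type cells. Apoe, also bright, went the other way, with 2011 in null and 1733 in wild-type cells. The transcription factor genes Foxa2 and Hnf4a were at background on all arrays, as was Apoa1. Gata6, below the filter, was above background on 3 arrays. It measured between 12.4 and 17.6 on null arrays, against 7.0 and 15.8 on wild-type arrays. Sox17, Sox7, Dab2, Afp, Pdgfra and Cubn were above background on all 6 arrays with overlapping groups, Sox17 between 16.1 and 28.3 on null arrays, against 17.7 and 26.3 on wild-type arrays. Gata4 measured between 89.1 and 123 on null arrays, against 120 and 127 on wild-type arrays.

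Trophoblast markers, the lineage in which TEAD4 and YAP act in the embryo, summed to between 667 and 819 on null arrays and between 746 and 796 on wild-type arrays, so the groups overlapped. Of 11 on the array 7 were tested and none passed (1 had an unadjusted p under 0.05, where 13.1% of all genes did), with Hand1 at -0.39, Gata2 at -0.30, Krt7 at -0.26 and Plac1 at 0.39 on the log2 scale. Cdx2, a defining trophectoderm factor and a known target of TEAD4 and YAP, was at background on all 6 arrays, and so was Elf5. Pluripotency markers summed to between 8971 and 9937 on null arrays and between 8370 and 8488 on wild-type arrays. Of the 12, all tested, Fbxo15 rose to 341 ± 31.1 in null cells, against 163 ± 10.3 in wild-type cells (SD, n = 4 and 2, limma adjusted p = 0.0465). This call ended too when any 1 array was left out (adjusted p between 0.0885 and 0.405 by limma), without the filter (0.202), with the block (0.0958) and with quantile normalization (0.0527). Fbxo15 was the 1 gene of the 12 called, where 0.177% of all genes tested were called higher. Before adjustment 4 of the 12 had p under 0.05 by limma (13.1% of all genes). Changes were positive for 8 of the 12 and negative for 4 (51.6% of all genes), with a median of 0.22. Dppa3, Fgf4 and Utf1 had log2 changes of 0.69, 0.39 and 0.38, and Tdgf1, Klf4, Nanog and Sox2, the negative ones, -0.38, -0.23, -0.09 and -0.04, and none of these 7 passed.

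**Figure D4:**
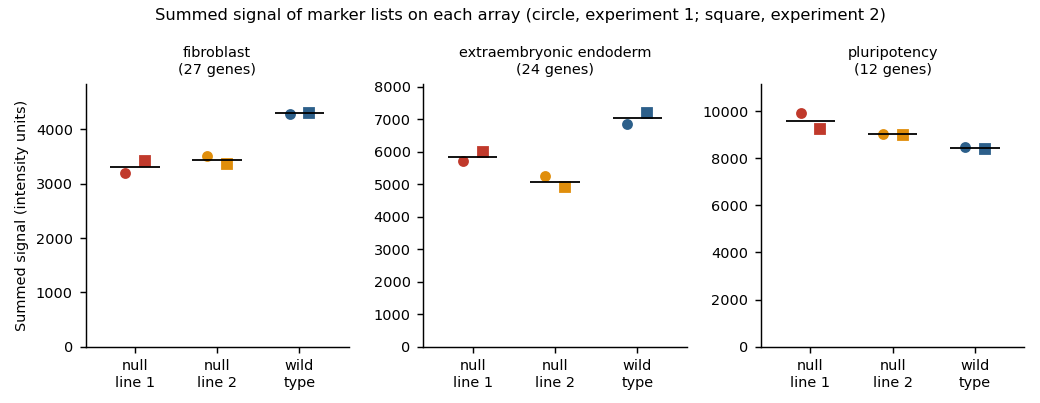
Summed MAS5 signal in intensity units (vertical axes, from 0) of the fibroblast, extraembryonic endoderm and pluripotency markers on each array, with bars for the mean of a line. Null arrays lie below wild-type arrays in the first 2 panels (3201 to 3509 against 4284 to 4311 for fibroblast markers) and above them in the third. Bright genes weigh most in each sum.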

How the data were processed

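RNA of wild-type cells and of 2 triple-null lines was measured on 6 Affymetrix arrays, 2 per line. Per the submitters' processing notes, the authors computed the deposited intensity values with MAS5 (version not given in the sources used here). Members and lists were chosen with earlier results of these data known. Names come from the platform annotation, with symbols updated through the RefSeq gene table (GRCm38.p6), which matched 10817 of 10833 probe sets listed with 1 gene; 396 list several genes and 1193 none. Control probe sets (66) were left out. Values were tested as log2(value + 2), where 2 is their 10th percentile, if the mean over all arrays reached the 40th percentile (20.9), which left 7453 probe sets and 5654 genes. One limma 3.58.1 model (R 4.3.3) with a mean per line gave each contrast, with 3 residual degrees of freedom and Benjamini-Hochberg adjustment over all probe sets tested. The smallest two-sided p that permuting 4 and 2 arrays allows is 0.0667, so adjusted p-values depend on the model. On simulated data for the null average with 7453 probe sets, 43.1% of those changed 2-fold and 90.7% of those changed 4-fold were called. Named were all members, the targeted genes, up to 4 genes of each list with the smallest p, and the 5 genes nearest to Wwtr1. Other genes in the text were picked after their values were seen. They are list members at background, below the filter, bright, near no change or against the direction of their list. Called genes too few to leave unnamed were picked in the same way. Precision is limited by the number of arrays. Figures were drawn with matplotlib 3.10.9.

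Alternatives were a pseudocount of 16, no filter, quantile normalization, a spread that follows the signal, the experiment number as a block, another probe set per gene, and each array left out. Deviations from the line means of arrays with the same experiment number correlated across probe sets with r between 0.0530 and 0.0948, so the numbers were not taken to pair the arrays. Protein sequences were not used here.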

Additional observations from a re-analysis of the deposited data

How the results depend on the processing

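Under the 11 alternatives, each member probe set above the filter kept the sign of its null against wild-type change, except Tead2 and Tead4 102867_at. Those were positive without wild-type replicate 2, at 0.15 and 0.09. Dropping the filter, fitting the spread and the experiment block cannot alter a log2 change, so these settings check no sign. The ranges were -0.84 to -0.74 for Wwtr1 103100_at, -0.77 to -0.21 for Wwtr1 95627_at, -0.82 to -0.57 for Frmd6, -0.67 to -0.52 for Lats2, -0.57 to -0.38 for Ccn1, -0.40 to -0.29 for Ccn2 and 0.43 to 0.53 for Nf2, with the smallest sizes for Wwtr1 103100_at and Frmd6 at a pseudocount of 16. No member passed between the null lines in any alternative. The call that chose Wwtr1 was made in 3 of the 11 alternatives (limma adjusted p between 0.0134 and 0.387), and so was that of Igfbp3 (0.00594 to 0.323).

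The count of probe sets called in the null average, 31, was 54 (29 higher, 25 lower) at a pseudocount of 16, 101 (48 higher, 53 lower) with a spread fitted to the mean signal, 8 without the filter and between 7 and 13 without 1 array. With the experiment number as a replicate block it was 14. Between the null lines the count of 2 was 1 at a pseudocount of 16 or with quantile normalization, and 0 without the filter, with the replicate block or without any 1 array. Among the other target genes 2 were called (Igfbp3 and F3) at a pseudocount of 16 and with the fitted spread, which also called 1 binding partner, Amot. The count was 0 without the filter, with the replicate block, with the dimmest probe set of each gene, and without any 1 array. The causes were not tested. Probe sets near background, those of Tead1 among them, give no direction here.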
